A study of Mus musculus with 7 samples.

Results

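The 46 genes described here act in the G2 phase and in mitosis, and were taken as every row of the deposited liver table whose Ensembl identifier belongs to a listed gene symbol in the GENCODE vM21 mouse annotation. All 46 were among the 14851 genes of the table, and 39 of them had a mean of at least 10 normalised counts over the livers and entered the test with 12545 genes in all. The other 7 (*Melk*, *Ccnb1*, *Ndc80*, *Nuf2*, *Bub1*, *Ttk* and *Kif15*) are given by their values only. The livers labelled FL here are those of 4 mice of the genotype *Albumin-Cre; p53*FL/FL. Their Cre recombinase is made from the *Albumin* promoter, so floxed *Trp53* is removed in hepatocytes. The livers labelled WT are those of 3 *Albumin-Cre; p53* WT mice, with the same Cre and an intact *Trp53*. All were C57BL/6J (N10) males of about 70 days, sampled 8 h after a single intraperitoneal dose of CCl4 (1 mL/kg of a 20% stock in corn oil), a solvent that hepatocytes turn into toxic radicals. Most liver cells other than hepatocytes keep *Trp53* in both genotypes, some mice may also have carried a Cre-activated red fluorescent reporter, and no untreated liver was analysed here. The source names of the 3 WT livers share 1 prefix, and those of the FL livers carry 2 others (replicates 1 and 4, and replicates 2 and 3), so whatever the prefix stands for cannot be told apart from genotype.

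Entry into mitosis is driven by cyclin-dependent kinase 1 bound to A- and B-type cyclins, and many of the genes that build the spindle, attach chromosomes to it, delay anaphase until attachment is complete and divide the cell are transcribed together late in the cell cycle. Their repression in resting cells is known to pass through the DREAM complex, which holds promoters with a cell cycle homology region (CHR), and their activation through B-MYB and FOXM1, with NF-Y bound at CCAAT boxes. The adult liver is mostly quiescent, but hepatocytes can re-enter the cycle after injury, and p53 is known to lower many of these genes through p21 and DREAM.

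The promoters of 5 members, whose levels are described below, are printed because they hold both of these elements. They are RefSeq windows on GRCm38.p6, from 250 bases before to 50 bases after the gene start, written 5′ to 3′ on the gene's strand, with each CHR (TTTGAA) and each CCAAT, read on either strand, in capitals.
Mki67: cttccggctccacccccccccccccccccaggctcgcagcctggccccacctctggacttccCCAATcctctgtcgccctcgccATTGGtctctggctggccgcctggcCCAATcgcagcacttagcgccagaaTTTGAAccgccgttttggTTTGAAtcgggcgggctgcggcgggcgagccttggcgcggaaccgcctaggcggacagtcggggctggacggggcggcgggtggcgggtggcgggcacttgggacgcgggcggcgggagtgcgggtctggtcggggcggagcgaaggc
Top2a: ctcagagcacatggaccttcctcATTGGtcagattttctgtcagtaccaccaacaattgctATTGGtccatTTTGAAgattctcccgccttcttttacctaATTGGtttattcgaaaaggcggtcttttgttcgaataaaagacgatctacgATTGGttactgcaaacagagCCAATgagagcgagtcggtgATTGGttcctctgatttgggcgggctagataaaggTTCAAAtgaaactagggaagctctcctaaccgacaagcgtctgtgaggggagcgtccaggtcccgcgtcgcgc
Cdk1: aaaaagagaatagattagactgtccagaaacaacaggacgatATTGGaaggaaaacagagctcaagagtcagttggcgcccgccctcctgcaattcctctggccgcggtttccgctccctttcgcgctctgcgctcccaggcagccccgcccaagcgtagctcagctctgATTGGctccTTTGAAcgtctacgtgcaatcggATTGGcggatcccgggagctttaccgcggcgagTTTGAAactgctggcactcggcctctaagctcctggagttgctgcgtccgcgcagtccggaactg
Plk1: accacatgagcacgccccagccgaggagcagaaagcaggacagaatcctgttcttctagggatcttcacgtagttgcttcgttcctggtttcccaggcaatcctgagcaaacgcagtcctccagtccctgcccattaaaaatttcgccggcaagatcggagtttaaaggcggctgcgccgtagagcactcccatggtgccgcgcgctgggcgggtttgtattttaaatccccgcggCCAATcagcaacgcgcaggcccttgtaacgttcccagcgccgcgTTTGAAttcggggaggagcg
Aurka: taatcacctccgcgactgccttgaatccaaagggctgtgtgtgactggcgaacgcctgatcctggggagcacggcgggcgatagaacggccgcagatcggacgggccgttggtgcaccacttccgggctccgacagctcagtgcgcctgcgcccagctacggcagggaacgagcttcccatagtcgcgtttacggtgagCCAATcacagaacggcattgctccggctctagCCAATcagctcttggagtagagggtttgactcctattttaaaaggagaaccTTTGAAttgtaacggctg
The windows lie at chr7:135716330-135716629 (minus strand) for *Mki67*, chr11:99024140-99024439 (minus) for *Top2a*, chr10:69352863-69353162 (minus) for *Cdk1*, chr7:122159185-122159484 (plus) for *Plk1* and chr2:172370521-172370820 (minus) for *Aurka*. TTTGAA was found in 29 of the 40 members with a window (72.5%), against 20.2% of all 27025 genes with a window. It lay within 50 bases of the start in 26 of the 40 (65%), against 5.72%. A gene with several windows counted if any of them held a match. CCAAT was found in 30 (75%, against 41.1%), and both in 25 (62.5%, against 8.97%). The variant TTCGAA was found in 3 members (7.5%, against 1.80%), of which *Top2a* holds 2 copies. These matches describe the letters of the windows and not bound sites. *Aurkb*, *Tpx2*, *Kif20a*, *Ccna2*, *Spc24* and *Foxm1* had no entry.

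The labels were checked first. Values are normalised counts and follow the replicate order throughout, FL first (1 to 4) and then WT (1 to 3). *Trp53* was at 131, 130, 217 and 110 in the FL livers and at 876, 688 and 831 in the WT livers, and was lower in FL by limma (log2 fold change −2.47, SE 0.231, adjusted p = 0.0447). The groups did not overlap, and FL replicate 3 held the highest of the FL values. *Cdkn1a*, which encodes p21, was at 1810, 1901, 952 and 2946 in FL and 1787, 1355 and 1658 in WT. The hepatocyte genes were abundant in every liver, with *Alb* between 956556 and 1511638 normalised counts. The estimated depth was 11.9 to 19.5 M reads on genes, with 1 read worth between 0.812 and 1.38 normalised counts.

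Across the 46 members, single livers stood far from the others of their own genotype. WT replicate 2 held the highest value of the 7 livers in 46 of 46 members, and FL replicate 3 the highest of the FL livers in 43. The summed level of the members was 691, 687, 1591 and 645 in FL and 674, 5731 and 839 in WT. WT replicate 2 was therefore 8.10 times, and FL replicate 3 2.25 times, the mean of the 5 other livers, which lay together between 645 and 839. The order of the livers did not follow the source prefix, since WT replicate 2 shares its prefix with WT replicates 1 and 3, and FL replicate 3 with FL replicate 2.

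**Figure D1:**
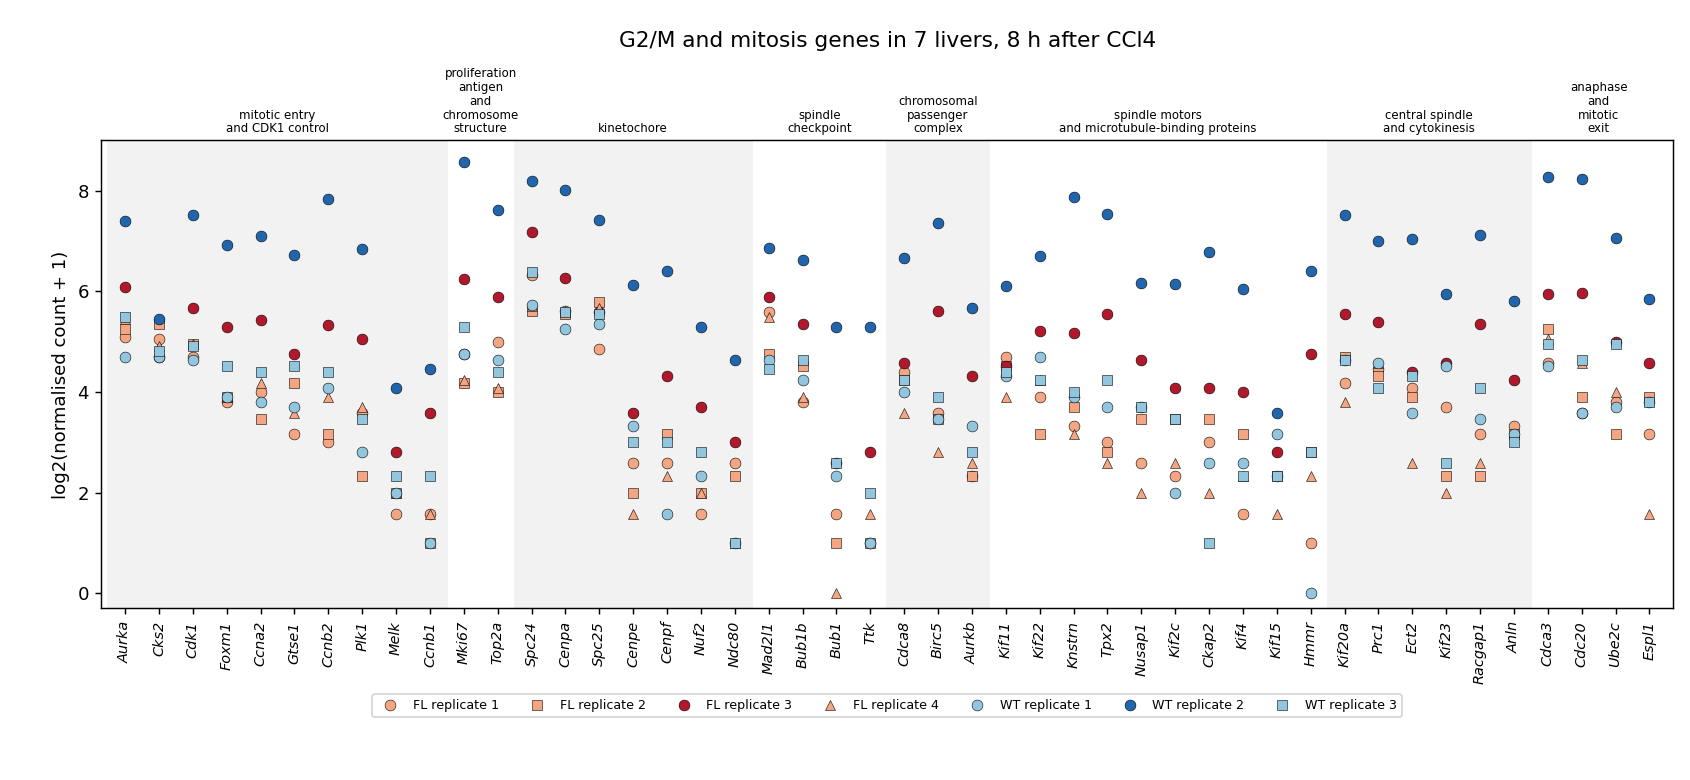
Level of each of the 46 members in each of the 7 livers, as log2(normalised count + 1), grouped by role and ordered by the mean of the 5 similar livers. WT replicate 2 (dark blue) is on top in 46 of 46 members and FL replicate 3 (dark red) comes next in 41.

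The same counts over the genes tested give the background. WT replicate 2 was the highest liver in 39 of 39 tested members and in 31.5% of all 12545 genes tested. FL replicate 3 was the highest FL liver in 36 of 39, against 35% of all genes, and WT replicate 2 was first with FL replicate 3 next in 36 of 39, against 18.8%. WT replicate 2 was at least 2-fold above each other WT liver in 38 of 39, against 9.47%, and FL replicate 3 at least 2-fold above each other FL liver in 16 of 39, against 2.1%. Each of these comparisons sets 1 liver against the others of its genotype and has no test. The filter used the mean over all 7 livers, and only 31 members reach it without WT replicate 2. Some tested members therefore entered through the liver in which they are counted as highest. Without the filter, WT replicate 2 was highest in 46 of 46 members and in 4832 of the 14851 genes of the table. Low genes in general were higher in WT replicate 2, where the 25th percentile of all genes was 38 normalised counts, against 23 to 25 in the 5 other livers and 29 in FL replicate 3.

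By level per kilobase of exon, with the exons of all annotated transcripts of a gene merged, the members were among the scarce transcripts of the 5 similar livers. Their median was 2.45 normalised counts per kilobase, against 67.4 for all genes tested, and the median tested member stood at percentile 4.29 of those genes. In WT replicate 2 the median was 20.9 per kilobase and the median tested member stood at percentile 27.3. The members highest per kilobase in the 5 livers were *Cks2* (44.2), *Spc24* (24.3), *Aurka* (14.4) and *Spc25* (13.7), whereas in WT replicate 2 they were *Cdc20* (161), *Ccnb2* (148), *Spc24* (113) and *Cdca3* (108). With members and the 5 livers pooled, the median value rested on an estimated 11.1 reads, and single livers lay above or below it. Counting alone gives an SD of 30.0% at that number of reads. In WT replicate 2 the median member rested on 116 reads (9.28%). Between 2 and 12 members lay under 3 reads in each of the 5 livers, so differences among these livers were often not detectable at this depth.

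Between genotypes, no member passed the threshold. With limma over all genes tested, 0 of 39 members were higher in FL (background 0%) and 0 were lower (background 0.0159%) at an adjusted p under 0.05, and the adjusted p was 0.999 for each of them. None had an unadjusted p under 0.05 either, against 3.2% of all genes, and the lowest was that of *Cenpe*. FL and WT values overlapped in all 46 members. Over all genes tested, FL lay wholly below WT in 1.98% and wholly above in 2.77%. For a list of this length, counts of 0 are near shares this small, so they do not set the members apart from all genes. The median log2 fold change, FL minus WT, was −0.84 over the tested members and 0.01 over all genes, with 37 members below 0 and 2 above. Its error was large, with a median SE of 0.811 for the members against 0.194 for all genes.

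That negative median rested on WT replicate 2. Without this liver the median log2 fold change was 0.02, with 17 members above and 14 below 0 among the 31 still tested. Without both WT replicate 2 and FL replicate 3 it was −0.20, with 8 above and 18 below among 26, and without FL replicate 3 alone it was −1.23. The mean log2 level of the 46 members was 3.77 ± 0.704 (SD, n = 4) in FL and 4.66 ± 1.69 (SD, n = 3) in WT. With both livers left out it was 3.42 in FL and 3.68 in WT. Because the tissue was sampled in bulk, fewer cells of a type and less RNA per cell cannot be told apart in any of these values.

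**Figure D2:**
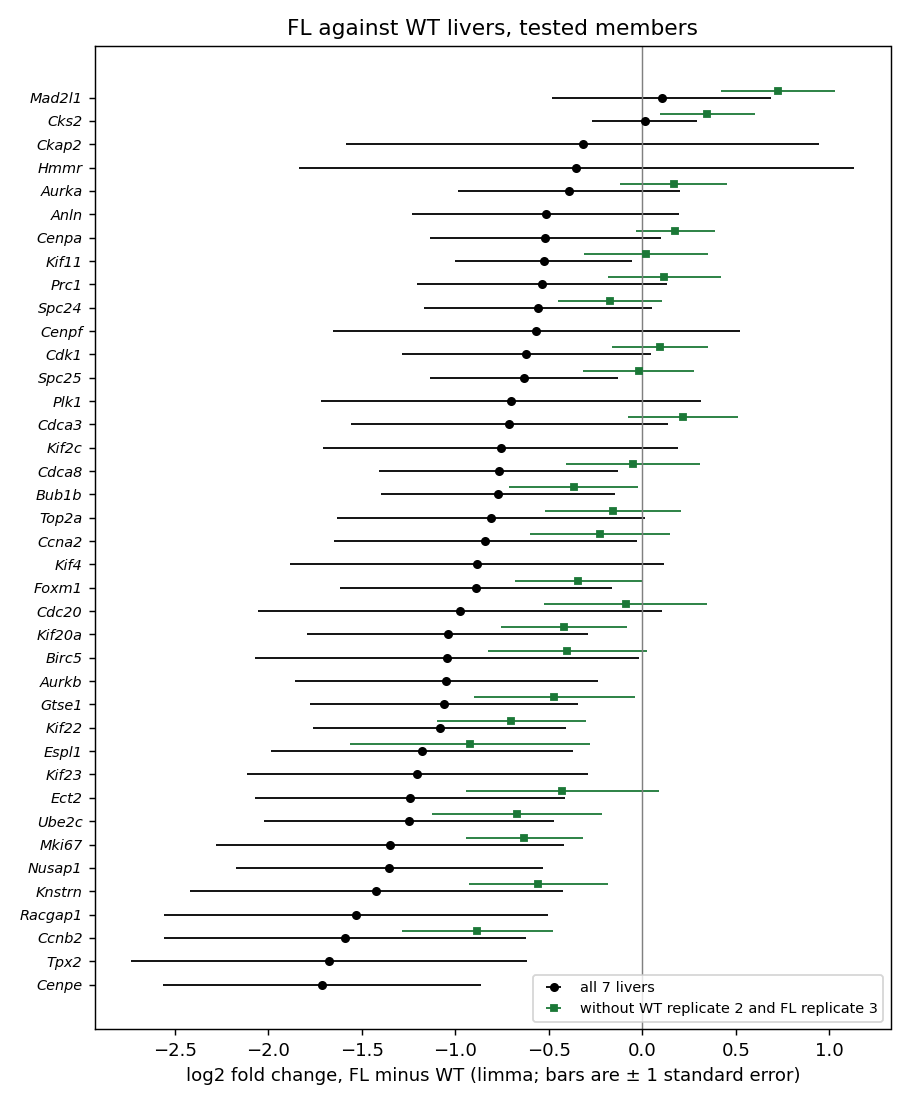
Log2 fold change, FL minus WT, of each tested member from limma, with bars of ± 1 SE, for all 7 livers (39 members, black circles) and without WT replicate 2 and FL replicate 3 (26 members still tested, green squares). The black points lie below 0 in 37 members, and 8 of the green points lie above 0 and 18 below, with *Mad2l1* and *Cks2* farther above 0 than in the fit of all livers.

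Genes of mitotic entry and CDK1 control showed this division in 9 of their 10 members. *Foxm1* (chr6:128362967-128376146, plus strand), the transcription factor of the late cell cycle programme, was at 13, 14, 38 and 14 in FL and 14, 120 and 22 in WT. *Cdk1* (chr10:69335146-69352938, minus), the kinase that starts mitosis, was at 25, 30, 50 and 30 in FL and 24, 182 and 29 in WT. In both genes WT replicate 2 was highest and FL replicate 3 came next, with the other livers between 13 and 22 for *Foxm1* and between 24 and 30 for *Cdk1*. The log2 fold change was −0.89 (SE 0.728, exact permutation p = 0.429) for *Foxm1* and −0.62 (SE 0.664, exact permutation p = 0.686) for *Cdk1*. All exact tests here are two-sided over the 35 splits of the livers, of which the smallest possible p is 0.0286.

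The CDK1 partners behaved alike. *Ccnb2* (chr9:70407692-70421547, minus), a B-type cyclin, was at 7, 8, 39 and 14 in FL and 16, 227 and 20 in WT, with a log2 fold change of −1.59 (SE 0.967, exact permutation p = 0.229). Cyclin A2, encoded by *Ccna2*, was at 15, 10, 42 and 17 in FL and 13, 137 and 20 in WT. *Ccnb1* (chr13:100778650-100786570, minus), the other main mitotic cyclin, was listed at 2, 1, 11 and 2 in FL and 1, 21 and 4 in WT (exact permutation p = 0.543). In WT replicate 2 *Ccnb2* and *Ccna2* were 12.1- and 8.05-fold above the other WT livers on the log2(value + 1) scale, while *Ccnb1* was too low in 4 of the 5 similar livers for a ratio. *Ccnb1* also shares 26.3% of its 36-base stretches with other transcripts, mostly a pseudogene, and its low values are uncertain for that reason too.

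The kinases that promote entry had the same order of livers. *Plk1* (chr7:122159439-122169873, plus), which activates CDK1 and acts at centrosomes and kinetochores, was at 11, 4, 32 and 12 in FL and 6, 113 and 10 in WT (log2 fold change −0.70, SE 1.02, exact permutation p = 0.6). *Aurka* (chr2:172356190-172370535, minus), the centrosomal Aurora kinase, was at 33, 37, 67 and 43 in FL and 25, 167 and 44 in WT (−0.39, SE 0.592, exact permutation p = 0.686). Both were highest in WT replicate 2 and next in FL replicate 3, and *Plk1* shares 12.2% of its stretches with other transcripts. The kinase gene *Melk* stayed low, at 2, 3, 6 and 3 in FL and 3, 16 and 4 in WT. *Gtse1*, whose product binds microtubules and counters p53, was at 8, 17, 26 and 11 in FL and 12, 104 and 22 in WT.

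*Cks2* (chr13:51645232-51650660, plus), a small subunit of CDK complexes, was the exception. It was at 32, 40, 25 and 29 in FL and 25, 43 and 27 in WT, so WT replicate 2 exceeded the other WT livers only 1.63-fold and FL replicate 3 was the lowest FL liver. Its log2 fold change was 0.01 (SE 0.279, exact permutation p = 1). *Cks2* shares 31.2% of its 36-base stretches with other transcripts, chiefly the predicted gene *Gm15452*, the highest share among the members, so part of its reads may be assigned to or taken from a copy.

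Both proliferation markers had WT replicate 2 highest and FL replicate 3 next, and *Mki67* reached the highest normalised count of any member. *Mki67* (chr7:135689784-135716361, minus), which coats mitotic chromosomes and is used as a marker of cycling cells, was at 26, 17, 75 and 18 in FL and 26, 380 and 38 in WT. *Top2a* (chr11:98992943-99024189, minus), the topoisomerase that untangles sister chromatids, was at 31, 15, 58 and 16 in FL and 24, 195 and 20 in WT. In WT replicate 2 *Mki67* was 11.7-fold above the other WT livers and *Top2a* 8.55-fold, and in FL replicate 3 they were 3.62- and 2.87-fold above the other FL livers. The log2 fold changes between genotypes were −1.35 (SE 0.930, exact permutation p = 0.343) for *Mki67* and −0.81 (SE 0.825, exact permutation p = 0.514) for *Top2a*, and they were −0.16 and 0.22 without WT replicate 2.

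Kinetochore genes, whose products join chromosomes to spindle microtubules, covered a wide range of levels. *Cenpa*, the histone that marks centromeres, was at 48, 46, 76 and 48 in FL and 37, 257 and 47 in WT. Of the NDC80 complex, which holds the microtubule end, *Spc24* was at 79, 48, 144 and 51 in FL and 52, 290 and 82 in WT, and *Spc25* at 28, 54, 47 and 50 in FL and 40, 169 and 46 in WT. For *Spc25* FL replicate 3 lay within the other FL livers, unlike *Spc24*. The other subunits were scarce: *Ndc80* was at 5, 4, 7 and 1 in FL and 1, 24 and 1 in WT, and *Nuf2* at 2, 3, 12 and 3 in FL and 4, 38 and 6 in WT. These 4 genes encode 1 complex. Their levels per kilobase in the 5 livers were 24.3 for *Spc24*, 13.7 for *Spc25*, 0.568 for *Nuf2* and 0.370 for *Ndc80*. The lengths merge the exons of all annotated transcripts and may exceed that of the RNA present. *Nuf2* and *Ndc80* also rested on few reads, so the levels of the subunits cannot be compared closely.

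*Cenpe* and *Cenpf* encode large proteins of the outer kinetochore. *Cenpe* (chr3:135212537-135273611, plus), a motor that moves chromosomes to the spindle equator, was at 5, 3, 11 and 2 in FL and 9, 69 and 7 in WT. FL replicate 3 lay above WT replicates 1 and 3, while the other FL livers lay below every WT liver, and the log2 fold change of −1.71 (SE 0.851, exact permutation p = 0.114) was the largest among the tested members. *Cenpf* (chr1:189640606-189688086, minus) was at 5, 8, 19 and 4 in FL and 2, 84 and 7 in WT, with the similar livers mixed (−0.57, SE 1.09, exact permutation p = 0.743).

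The spindle checkpoint delays anaphase until every kinetochore is attached, and its genes included the lowest of the members. *Bub1* (chr2:127801122-127831865, minus), a checkpoint kinase, was listed at 2, 1, 5 and 0 in FL and 4, 38 and 5 in WT (exact permutation p = 0.114). *Ttk*, the kinase that starts the signal, was at 1, 1, 6 and 2 in FL and 1, 38 and 3 in WT. *Bub1b*, whose product inhibits the anaphase-promoting complex, was at 13, 22, 40 and 14 in FL and 18, 97 and 24 in WT. *Bub1* and *Ttk* exceeded 6 normalised counts in no liver but WT replicate 2.

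*Mad2l1*, whose product binds CDC20 while the checkpoint is active, was at 47, 26, 58 and 44 in FL and 24, 116 and 21 in WT. It was 1 of the 2 tested members with a fold change above 0 (log2 0.10, SE 0.588). Without WT replicate 2 and FL replicate 3 its 3 FL values lay above the 2 WT values, with a log2 fold change of 0.73 (SE 0.303, adjusted p = 0.489 by limma), and it was the only 1 of the 26 members with an unadjusted p under 0.05 in that fit, against 1200 of all 12325 genes then tested.

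The chromosomal passenger complex corrects wrong attachments, and its 3 genes were each highest in WT replicate 2 and next in FL replicate 3. *Birc5*, which encodes survivin, was at 11, 10, 48 and 6 in FL and 10, 163 and 14 in WT, and its kinase partner *Aurkb* at 4, 4, 19 and 5 in FL and 9, 50 and 6 in WT. *Cdca8*, which encodes borealin, was at 20, 18, 23 and 11 in FL and 15, 100 and 18 in WT. *Birc5* was 5.03-fold higher in FL replicate 3 than in the other FL livers, against 1.42-fold for *Cdca8*, and in WT replicate 2 both were above the other WT livers (12.8- and 5.79-fold).

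Spindle motors and microtubule-binding proteins differed widely in how far WT replicate 2 and FL replicate 3 stood apart. *Kif11* (chr19:37376403-37421859, plus), the motor that separates spindle poles, was at 25, 22, 22 and 14 in FL and 19, 68 and 20 in WT, so FL replicate 3 did not stand apart (log2 fold change −0.53, SE 0.472, exact permutation p = 0.514). *Kif15*, which shares that task, was at 4, 4, 6 and 2 in FL and 8, 11 and 4 in WT, and here WT replicate 2 exceeded the other WT livers by 1.79-fold. At the other end, *Ckap2*, a spindle-associated protein, was at 7, 10, 16 and 3 in FL and 5, 109 and 1 in WT. *Hmmr*, which acts at spindle poles, was at 1, 6, 26 and 4 in FL and 0, 84 and 6 in WT, with WT replicate 1 listed at 0 and WT replicate 2 the highest of all.

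*Tpx2*, which activates Aurora A and seeds microtubules, had the largest ratio in FL replicate 3, at 6.76-fold over the other FL livers (7, 6, 46 and 5 in FL, and 12, 184 and 18 in WT). *Knstrn*, whose product is needed for chromosome alignment, was at 9, 12, 35 and 8 in FL and 14, 235 and 15 in WT. *Nusap1* (chr2:119618298-119651244, plus), which bundles microtubules, was at 5, 10, 24 and 3 in FL and 12, 71 and 12 in WT (−1.35, SE 0.821, exact permutation p = 0.2). In each of these 3 genes WT replicate 2 was highest and FL replicate 3 next. Among the remaining motors, *Kif2c*, which depolymerises microtubules, ranged from 4 to 16 in FL and from 3 to 70 in WT. The chromosome-arm motors *Kif22* and *Kif4* ranged from 8 to 36 and from 2 to 15 in FL, and from 18 to 103 and from 4 to 65 in WT. *Kif4* overlaps the exons of *Pdzd11* on the other strand over 15.1% of its exon length, and the strand setting of the read counting is not given in the sources used here.

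All 6 genes of the central spindle and cytokinesis had WT replicate 2 first and FL replicate 3 next. *Racgap1*, a subunit of the centralspindlin complex, was at 8, 4, 40 and 5 in FL and 10, 138 and 16 in WT, and its motor partner *Kif23* at 12, 4, 23 and 3 in FL and 22, 61 and 5 in WT. *Ect2*, the exchange factor that centralspindlin recruits, was at 16, 14, 20 and 5 in FL and 11, 131 and 19 in WT. For *Racgap1* FL replicate 3 was 6.34-fold above the other FL livers, whereas for *Ect2* it was 1.82-fold above them and level with WT replicate 3. *Prc1*, which crosslinks the central spindle, ranged from 19 to 41 in FL and from 16 to 127 in WT. *Kif20a* ranged from 13 to 46 in FL and from 24 to 181 in WT, and *Anln*, the contractile ring protein anillin, from 8 to 18 and from 7 to 55. *Kif20a*, *Ccna2* and *Prc1*, and *Ube2c* below, overlap a gene on the other strand over 29.3%, 12.5%, 11.1% and 22.8% of their exon length.

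Genes of anaphase and mitotic exit reached some of the highest values. *Cdc20* (chr4:118432901-118437352, minus), which turns on the anaphase-promoting complex, was at 11, 14, 62 and 23 in FL and 11, 301 and 24 in WT, 17.4-fold above the other WT livers in WT replicate 2. Its log2 fold change was −0.98 (SE 1.08, exact permutation p = 0.543), and 19.8% of its 36-base stretches are shared, mostly with *Gm7856*. *Ube2c*, the ubiquitin-conjugating enzyme of that complex, was at 13, 8, 31 and 15 in FL and 12, 133 and 30 in WT. *Cdca3*, which promotes loss of the kinase WEE1, was at 23, 37, 61 and 32 in FL and 22, 309 and 30 in WT. Separase, encoded by *Espl1* and the protease that frees sister chromatids, was at 8, 14, 23 and 2 in FL and 13, 57 and 13 in WT. In all 4 genes WT replicate 2 was highest and FL replicate 3 next.

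Over the 46 members the median log2 difference was 2.77 for WT replicate 2 against the other WT livers and 1.42 for FL replicate 3 against the other FL livers. Over all 14851 genes of the table these medians were 0.07 and 0.04. WT replicate 2 was at least 2-fold above each other WT liver in 44 of the 46 members, against 1855 of those genes. Several members were near 0 in WT replicates 1 and 3, such as *Ndc80* (1 and 1), *Hmmr* (0 and 6) and *Ckap2* (5 and 1). The size of their ratios is uncertain. Members with a larger difference in one liver tended to have a larger one in the other (Pearson correlation across the 46 genes 0.61, Spearman 0.55), and over all genes tested the Pearson correlation was 0.77. Genes are not independent replicates, and each axis rests on 1 liver.

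**Figure D3:**
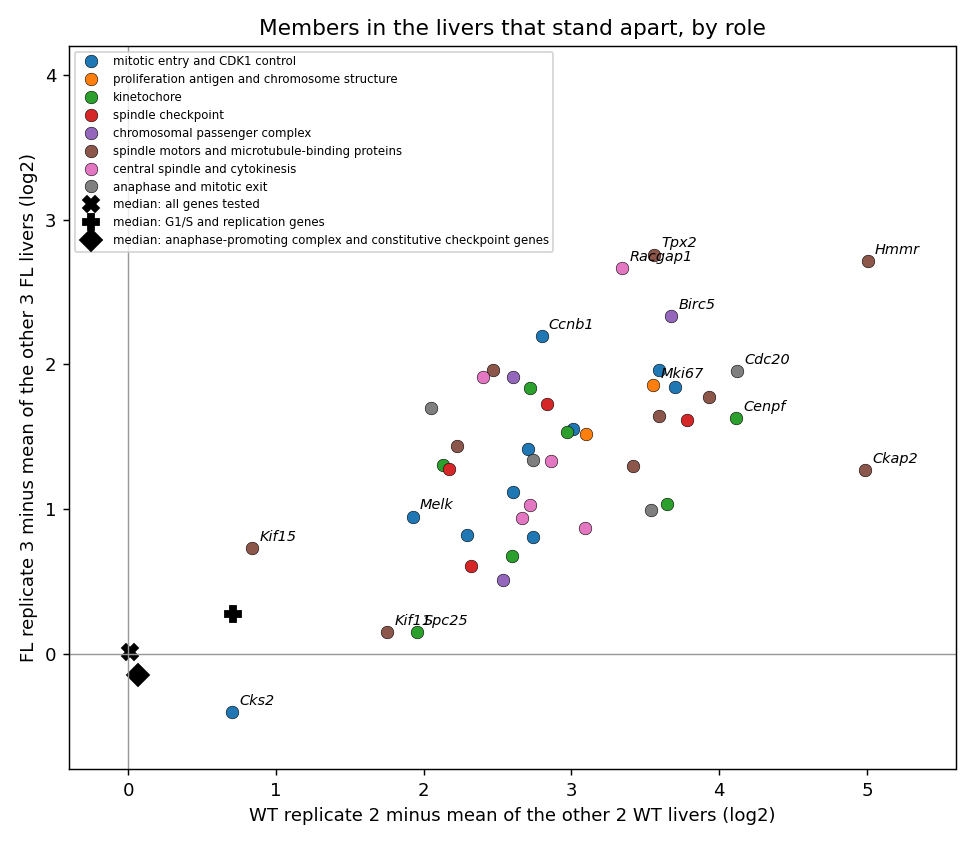
Log2 difference of WT replicate 2 from the mean of the other WT livers (x axis), plotted against the difference between FL replicate 3 and the rest of the FL group (y axis), 1 point per member, coloured by role, with black marks for the medians of 3 other gene lists. All 46 members lie to the right of 0, and *Cks2* is the only member below 0 on the y axis.

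Other genes of the cell cycle differed between the livers to different extents. Of 65 further mitosis genes in the table, 45 were tested, 0 were called by limma (3 at an unadjusted p under 0.05), and WT replicate 2 was the highest liver in 56. Their median log2 difference was 2.21 in WT replicate 2 and 0.92 in FL replicate 3. The 38 genes of G1/S and replication had medians of 0.71 and 0.27, with WT replicate 2 highest in 23. Cyclin D1, encoded by *Ccnd1*, was at 443, 213, 527 and 331 in FL and 475, 2564 and 543 in WT, whereas *Pcna*, the sliding clamp of replication, was at 196, 191, 190 and 203 in FL and 209, 162 and 190 in WT.

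Lists of constitutive mitosis genes and of the DREAM and MuvB regulators had medians near 0 in both livers. The 18 genes of the anaphase-promoting complex and constitutive checkpoint had medians of 0.07 in WT replicate 2 and −0.15 in FL replicate 3, and the 12 DREAM and MuvB subunits −0.12 and 0.05. The highest liver was WT replicate 2 in 7 of the 18 and in 2 of the 12. These 2 were *Rbl1* (33, 32, 43 and 30 in FL and 33, 55 and 33 in WT) and *Mybl2* (9, 10, 12 and 6 in FL and 10, 14 and 7 in WT), both with FL replicate 3 next. Tested by limma were 18 genes of the first list, 11 of the DREAM and MuvB list without *Mybl2*, and 34 of the G1/S list. None of those tested was called between genotypes or had an unadjusted p under 0.05.

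Markers of several other cell types were also highest in WT replicate 2, and those of fewer types in FL replicate 3. Over all genes tested, WT replicate 2 was the highest liver in 31.5% and FL replicate 3 the highest FL liver in 35%. The lists below are short and also count genes that were not tested. WT replicate 2 was the highest liver in 4 of 4 monocyte markers, whose sum ranged from 19 to 117 in FL and from 16 to 201 in WT, with *Chil3* at 0 in FL replicates 2 and 4 and in WT replicates 1 and 3. It was highest in 4 of 4 B cell markers (sums 29 to 102 in FL and 24 to 170 in WT), 5 of 6 T and NK cell markers (31 to 73 and 35 to 145), 8 of 9 Kupffer cell and macrophage markers (5402 to 8735 and 5329 to 14353) and 4 of 4 stellate cell markers (848 to 982 and 818 to 2013). *Ms4a1* of the B cell list and *Cd8a* of the T cell list were at 0 in FL replicate 4. FL replicate 3 held the highest FL sum of each of these lists, and also of the neutrophil, endothelial and hepatocyte markers. Each sum follows its most abundant genes, such as *Alb* in the hepatocyte list. By gene, FL replicate 3 was the highest FL liver in 4 of 4 monocyte and 4 of 4 B cell markers. The counts were 3 of 6 for T and NK cells and 7 of 9 for Kupffer cells and macrophages. They were 2 of 4 for stellate cells, 3 of 3 for neutrophils, 4 of 5 for endothelium and 3 of 6 for hepatocytes. On lists this short, counts of 2 of 4 and 3 of 6 do not set FL replicate 3 apart from its share over all genes. The mean log2 level of the hepatocyte markers was higher in FL replicate 4.

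The remaining lists did not all follow this order. WT replicate 2 was highest in 2 of 3 neutrophil markers (sums 40 to 115 in FL and 58 to 164 in WT, with *Ly6g* and *Mpo* not in the table) and 3 of 5 endothelial markers (2164 to 2506 and 1973 to 2705). It was highest in 0 of 6 hepatocyte markers (1313841 to 1737411 and 1127355 to 1398503) and 0 of 4 bile duct markers (335 to 881 and 386 to 555). FL replicate 3 held the lowest bile duct sum. The part of any of these cell types in the members' levels was not tested.

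**Figure D4:**
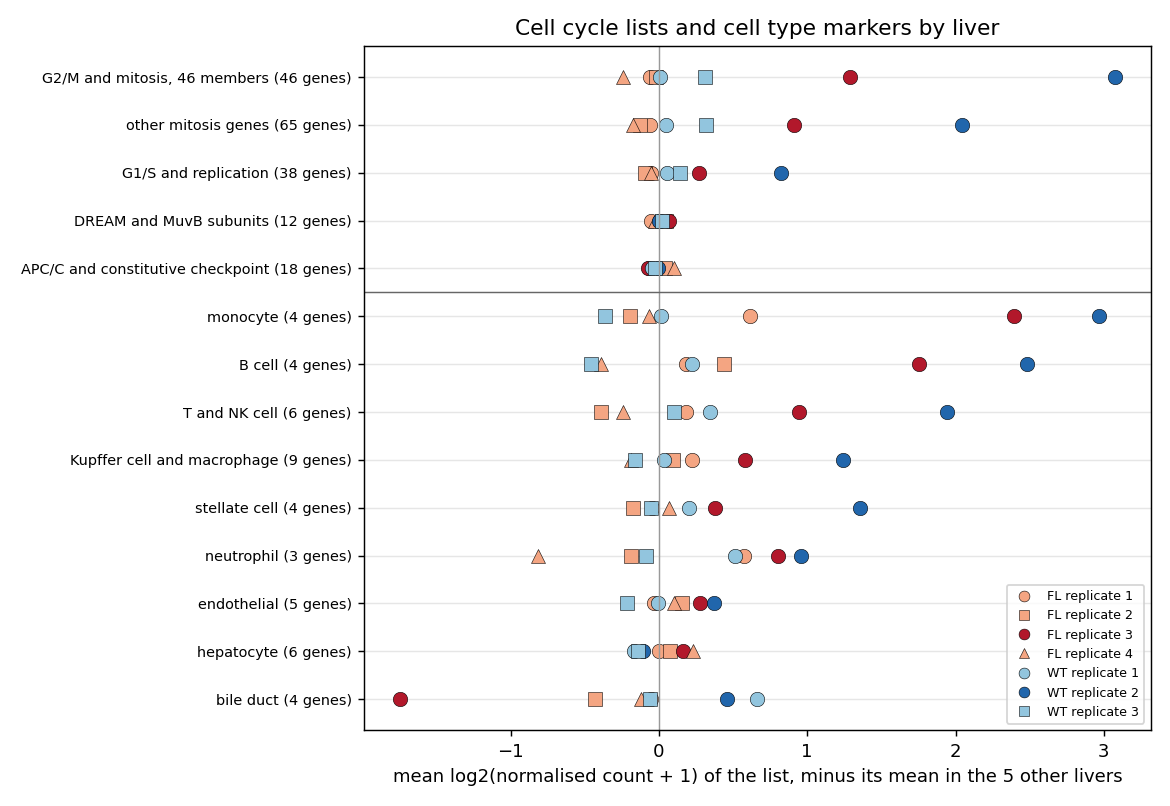
Mean log2(normalised count + 1) of each list in each liver, minus the mean of that list over the 5 similar livers, for the members and other cell cycle lists (above the line) and cell type markers (below). For the 46 members WT replicate 2 lies at 3.07 and FL replicate 3 at 1.29, for monocyte markers at 2.97 and 2.39, and for hepatocyte markers at −0.10 and 0.16.

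By correlation over the 7 livers with the mean log2 level of the tested members, the 5 other genes most like it were *Plekha7*, *B430306N03Rik*, *Mgst3*, *Man2b2* and *Col6a3* (Pearson 0.998 to 0.994). All 5 correlations were lower without the livers that stood apart. Over the 5 similar livers they were 0.941, 0.836, 0.777, 0.858 and 0.606, and 1192 of the 12506 other genes tested (9.53%) had a value above 0.9 over the 7 livers. *Col6a3*, a collagen VI chain, was at 71, 73, 166 and 75 in FL and 69, 678 and 82 in WT.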

How the data were processed

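Liver RNA of 4 FL and 3 WT mice was analysed, with groups and replicates taken from the sample labels. The authors prepared stranded libraries of polyadenylated RNA. Per the labels and methods, they used TopHat2 version 2.0.13, Bowtie2 version 2.2.6.0, HTSeq version 2.2.4.0 and DESeq2 for alignment, counting and normalisation. The labels also list featureCounts, without a version. The deposited values are normalised counts rounded to whole numbers by the authors, so they were used as a score, and tests made for read counts were not applied. The 14988 table rows held 14851 Ensembl identifiers. The submitters name a human build, although the identifiers are of mouse. Coordinates here come from GENCODE vM21 (GRCm38).

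The genotypes were compared by limma (version 3.58.1, R version 4.3.3, mean-variance trend) on log2(normalised count + 1), a scale that understates the change of low genes. Genes needed a mean of 10 or more to be tested, and Benjamini-Hochberg adjustment ran over all of them with a threshold of 0.05. Single genes were also tested by exact permutation. Simulated data with log2 changes of 2 in genes drawn from all those with a mean of 10 or more were used to test this procedure. It called 97.4% of the changed genes with the spread of the 5 similar livers and 88.3% with that of all 7. Genes varied independently there and were not chosen for a spread as large as that of the members. These shares therefore do not hold for the members. The labels and methods give separate mice, which were matched for age and litter only where possible. Depth was estimated from the spacing of the low values, and counting SDs cover counting error only. Stretches of 36 bases shared between GENCODE transcripts were counted.

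The members, the other lists and the tests were chosen with earlier results of these data known. One of the lists of cell type markers is not reported here. Statistics were given for *Mki67*, *Top2a*, *Cdk1*, *Ccnb1*, *Foxm1*, *Plk1*, *Aurka*, *Bub1*, *Kif11*, *Cenpf*, *Cdc20*, *Cks2* and the 3 further tested members with the lowest limma p. Promoters were printed for the first 5 of these that hold a CHR and a CCAAT box. *Mad2l1*, the non-member cell cycle genes named and the ranges singled out beyond these were picked once their values had been seen. Alternatives covered other pseudocounts, filters, scalings and limma settings, a replicate block, and the omission of livers.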

Additional observations from a re-analysis of the deposited data

Results flagged for a closer look

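In 12 of the 47 results examined (each member and their mean log2 level), FL replicate 3 lay farther above the next FL liver than Dixon's 95% critical value for 4 livers allows. Chance would give about 2.35, and the members are not independent of each other. Gaps of single members were taken on normalised counts and not on the log2 scale used elsewhere, and only that of their mean on log2 values. The critical value assumes normally distributed values, which low counts such as those of *Ccnb1* and *Nuf2* need not follow. The 12 is therefore a description and not a test against 2.35. The values in FL replicate 3 were 38 normalised counts for *Foxm1*, 48 for *Birc5*, 19 for *Aurkb*, 40 for *Racgap1*, 12 for *Nuf2*, 35 for *Knstrn*, 46 for *Tpx2*, 76 for *Cenpa*, 75 for *Mki67*, 18 for *Anln* and 11 for *Ccnb1*. The mean log2 level of the 46 members was 4.82 in this liver. The gap took between 0.845 and 0.96 of the range. None of the 12 involved another liver, and groups of 3 were not examined in this way, so WT replicate 2 was not examined.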

How the results depend on the processing

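The count of members past the threshold was 0 under each of the 18 alternatives, and 0 to 2 members had an unadjusted p under 0.05, against 110 to 1512 of all genes tested (2 members and 1512 genes with array weights). With livers left out singly, the median log2 fold change of the tested members ranged from −1.48 to 0.02, and the value above 0 came from leaving out WT replicate 2. The median was −0.27 with array weights (weights of 0.122 for WT replicate 2 and 0.392 for FL replicate 3), −0.20 without both livers, and −0.70 with the replicate block. Deviations of same-numbered livers from their group means had correlations of 0.438, −0.483 and −0.661 for replicates 1 to 3. WT replicate 2 and FL replicate 3 weigh heavily on the group means, so these values cannot decide whether livers were paired. The replicate number was not taken as a pairing. Pseudocounts, filters and scalings gave −0.87 to −0.63. By quantile normalisation WT replicate 2 was highest in 38 of 39 tested members. Signs turned with array weights for *Cdk1* (0.053), *Aurka* (0.035), *Kif11* (0.046) and *Cenpf* (0.30), and without both livers for *Cdk1* (0.094), *Aurka* (0.17) and *Kif11* (0.020). *Cks2* was at −0.017 with 75th percentile scaling. With livers left out singly, log2 fold changes ranged from −1.39 to 0.22 for *Top2a*, −1.14 to 0.29 for *Cdk1*, −1.49 to 0.011 for *Foxm1*, −1.48 to 0.53 for *Plk1*, −0.97 to 0.37 for *Aurka*, −0.84 to 0.056 for *Kif11*, −1.93 to 0.40 for *Cdc20* and −0.13 to 0.25 for *Cks2*. For these genes other than *Cks2*, leaving out WT replicate 2 gave the value above 0. *Mki67*, *Ccnb2* and *Nusap1* stayed below 0, between −2.07 and −0.16, −2.26 and −0.39, and −1.84 and −0.53, with the values nearest 0 again from leaving out WT replicate 2. *Cenpe* and *Cenpf* had too low a mean to be tested without that liver. The causes of these turns were not tested beyond the livers left out. Adjusted p over the named genes and alternatives ranged from 0.414 to 1.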
